A study of Arabidopsis thaliana with 6 samples.

Results

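A search of the array annotation for genes of the NAC family, by symbols made of NAC or ANAC and digits, found a single gene, NAC014 (locus AT1G33060), of 13356 genes with a probe set paired with 1 gene. In the RefSeq gene table, 100 genes carried such a name as symbol or synonym, and the other 99 were not analysed here. The values below therefore describe NAC014 and do not speak for the family. NAC014 was reported by 1 probe set, a probe set being a group of short probes designed against the same transcript. RefSeq lists 2 transcripts for the gene, and which of them the probe set reports was not known from the annotation used.

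NAC proteins are a large plant-specific family of transcription factors that bind DNA through a conserved domain near the amino terminus. Members are known for regulating organ boundaries, formation of xylem vessels and fibres, leaf senescence, and responses to drought, abscisic acid and other stresses. NAC014 has been grouped with the membrane-tethered members, which are held at a membrane by a hydrophobic stretch near the carboxy terminus and enter the nucleus once released. For such a protein the transcript level does not give the amount of active factor.

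Seedlings of the Arabidopsis thaliana ecotype Col-0 were sampled at growth stage 1.03, and RNA from the shoots of 5 of them made up a sample. They grew untreated on half-strength MS plates at 21 °C under 16 h of light and 8 h of dark. The 2 genotypes were WT and 35S::KLU, which carries KLU behind the strong, nearly constitutive 35S promoter of cauliflower mosaic virus. KLU, a cytochrome P450 of the CYP78A subfamily, is known to make plant organs grow larger. Biological replicates numbered 3 per genotype with 1 Affymetrix ATH1 array each, and were described as 3 independent experiments in which both genotypes shared a plate. How many independent lines 35S::KLU stands for was not given in the sources used here. That promoter is known to be active in most tissues, and where KLU was expressed in these plants was not measured. The level of KLU was not analysed here, which left the genotype labels without a check against the transgene.

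All values are log2 RMA signals, a scale on which 1 unit is a 2-fold change. The arrays carried green shoot RNA, since the 4 measured markers of 14 listed (RCA, PRK, LHCB4.1 and LHCB4.2, all of photosynthesis) read 12.87 to 14.23 on every array. Of 8 root markers, the root hair expansin genes EXPA7 and EXPA18 read at most 5.08 on any array. The third measured, the root and hypocotyl beta-glucosidase gene PYK10, read 10.02 to 10.52 in WT and 10.57 to 10.85 in 35S::KLU (adjusted p = 0.078 by limma). Whether PYK10-expressing tissue has a part in any value below was not tested. Of 5 floral markers 0 were measured.

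NAC014 gave a signal of middle brightness on all arrays and was close to equal in the 2 genotypes. In WT its log2 signal was 6.75 in replicate 1, 6.54 in replicate 2 and 6.41 in replicate 3. In 35S::KLU it was 6.41 in replicate 1, 6.70 in replicate 2 and 6.47 in replicate 3. The highest array was WT replicate 1 and the lowest WT replicate 3, so the 3 values of 35S::KLU fell inside the range of WT. The whole spread over the 6 arrays was 0.34. On 6 of 6 arrays NAC014 lay above the array's median probe set, which was 6.01 to 6.05. NAC014 also lay well above the lower quartile of 4.06 to 4.11, used here as a mark for dim signals. How signals below that mark respond to changes in RNA was not tested.

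**Figure D1:**
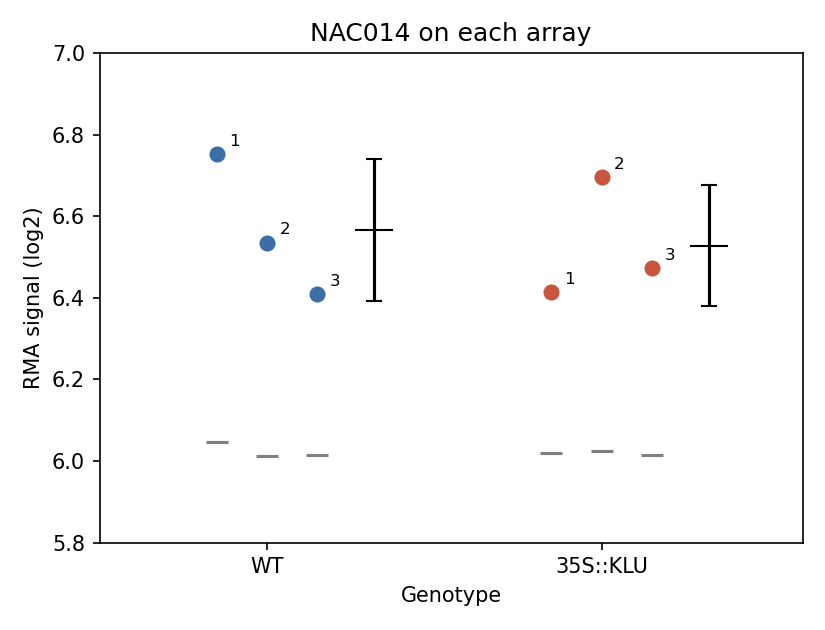
NAC014 signal (log2 RMA, vertical axis, not starting at 0) on each array by genotype; numbered points are replicates, the black bar to their right is the mean ± SD of 3 arrays, and grey dashes are each array's median over all probe sets. The 35S::KLU arrays lie between 6.41 and 6.70, inside the WT range of 6.41 to 6.75.

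The mean signal of NAC014 over 3 arrays (± SD, n = 3) was 6.57 ± 0.17 for WT and 6.53 ± 0.15 for 35S::KLU. The difference, 35S::KLU minus WT, was -0.04 on the log2 scale (SE 0.11), or 1.03-fold lower. It was smaller than the SD of either genotype and did not pass the test (limma across all probe sets, Benjamini-Hochberg adjusted p = 0.89, unadjusted p = 0.73). An exact two-sided permutation test over the 6 arrays gave p = 0.80, where 3 arrays against 3 cannot give less than 0.10. The 95% confidence interval of the difference ran from -0.28 to 0.20. A fall of more than 1.21-fold or a rise of more than 1.15-fold in NAC014 lay outside it. That interval rests on the SE from limma, which also draws on the spread of all probe sets, and NAC014 varied more than most. With 3 arrays per genotype, changes inside the interval could not be told from none. Passing the adjusted threshold would have taken about 1.32-fold. In bulk shoots, fewer cells with the transcript and less transcript per cell cannot be told apart.

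Of the NAC genes, 0 of 1 passed an adjusted p of 0.05 by limma, and 0 of 1 had an unadjusted p under 0.05. Over all genes, each taken by its brightest probe set, 6.85% passed and 19.1% had an unadjusted p under 0.05, and over all probe sets 8.32% passed. With 1 gene, a count of 0 says nothing about NAC genes as a group beside this background. The difference of NAC014 lay close to the median difference of all 13356 genes, which was -0.02.

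NAC014 varied among replicates more than most probe sets. Its pooled SD within genotypes was 0.16, against a median of 0.10 over all 22746 probe sets, and 85.2% of probe sets had a smaller one. With the SE of 0.11 from limma, which also draws on the spread of all probe sets, NAC014 would have needed a difference of about 0.40 (1.32-fold) to pass. Its sign depended on single arrays. The difference was 0.055 without WT replicate 1, the highest array, and 0.018 without 35S::KLU replicate 1, the lowest 35S::KLU array. It was -0.12 without WT replicate 3 and also -0.12 without 35S::KLU replicate 2. No direction can be given for NAC014 on these arrays.

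**Figure D2:**
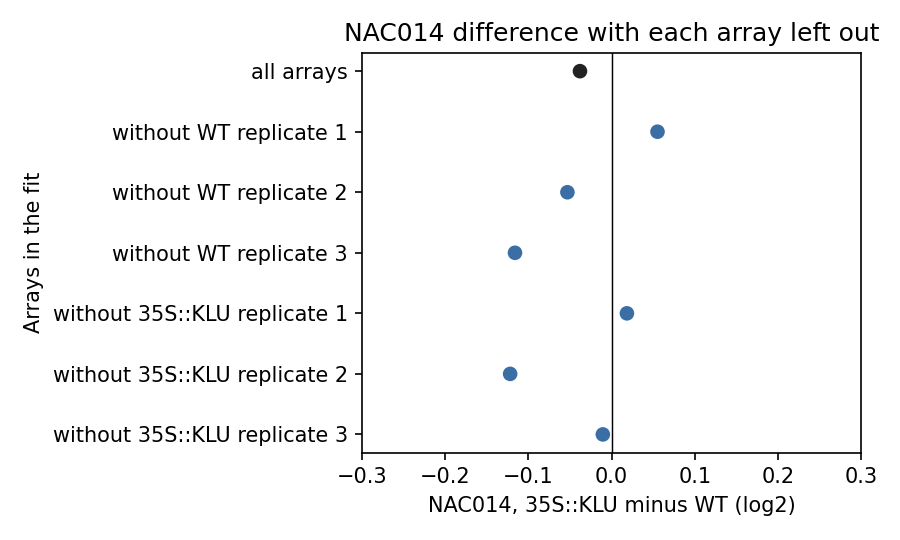
Difference of NAC014 between genotypes (log2, 35S::KLU minus WT, horizontal axis) with all 6 arrays (black) and with each array left out in turn (blue). The 6 blue points run from -0.12 to 0.055 and lie on both sides of 0.

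Genes beside NAC014 in the RefSeq locus order were examined for context, a choice made after the values were seen. Of the 8 nearest loci, 4 on each side, 5 had a listed probe set and 0 passed the adjusted threshold by limma, while 2 had an unadjusted p under 0.05, beside 6.85% and 19.1% of all genes. AT1G33055, the locus directly before NAC014, read 4.83 ± 0.08 in WT and 4.60 ± 0.06 in 35S::KLU (difference -0.23, SE 0.07, adjusted p = 0.10). AT1G33070, directly after it, read 3.56 ± 0.20 and 3.48 ± 0.14 (difference -0.08, adjusted p = 0.76), below the lower quartile of the arrays.

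Genes reported downstream of, or in the same processes as, NAC proteins other than NAC014 were set beside it. They came from a list of 65 genes drawn up from general knowledge, without a check of each link, of which 9 had a listed probe set, so that most of the list was not analysed here. By limma 5 of the 9 rose in 35S::KLU, 0 fell and 4 did not pass, where 3.51% of all genes rose and 3.34% fell. Their median difference was 0.50, beside -0.02 for all genes. Without the cold- and dehydration-regulated genes COR15A, COR15B, COR47 and LTI30, 2 of 5 rose and the median was 0.31. Most of those left out, and SAG29 and SAG101, were already known to rise in these data, so neither count nor median is independent evidence. The list was not drawn from targets of NAC014.

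By role, the 2 measured senescence genes of 14 listed rose, and the other 12 were not measured. SAG29, a sugar transporter gene of senescing leaves, read 7.82, 7.69 and 7.85 in WT replicates 1 to 3 and 9.22, 8.91 and 8.75 in 35S::KLU replicates 1 to 3. These values did not overlap, as was the case for 25.9% of all probe sets, and the difference was 1.17 (SE 0.11, adjusted p = 2.9e-04). SAG101, which encodes a lipase-like protein of senescence and immunity, read 4.31, 4.26 and 4.15 in WT and 4.67, 4.78 and 4.77 in 35S::KLU, also without overlap (difference 0.50, SE 0.07, adjusted p = 0.003). Its WT values lay only a little above the lower quartile of the arrays, which was 4.06 to 4.11. Of 5 measured genes of abscisic acid, dehydration and cold, from 13 listed, COR15A, COR15B and LTI30 rose. Their differences were 2.44 (SE 0.11), 2.35 (SE 0.12) and 1.46 (SE 0.23). LTI30 was the least even of them, at 6.22, 7.28 and 7.15 in 35S::KLU replicates 1 to 3 (limma adjusted p = 0.0045). COR47, a dehydrin gene, and BSMT1, which encodes a methyltransferase acting on salicylic acid, did not pass, with differences of 0.10 and 0.05.

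NDB2, which encodes an alternative NADH dehydrogenase of mitochondria and responds to mitochondrial dysfunction, was the single gene measured for that role. It read 6.26, 6.40 and 6.08 in WT replicates 1 to 3 and 6.60, 6.50 and 6.56 in 35S::KLU replicates 1 to 3. The genotypes did not overlap, yet the difference of 0.31 (SE 0.09) did not pass (adjusted p = 0.074). LAS, a regulator of axillary meristems at organ boundaries, differed by -0.08 (SE 0.08, adjusted p = 0.65), and both LAS and BSMT1 read below the lower quartile of the arrays. Of the 16 listed genes of secondary wall formation, 8 of the DNA damage response and 2 of growth hormone synthesis, 0 were measured.

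**Figure D3:**
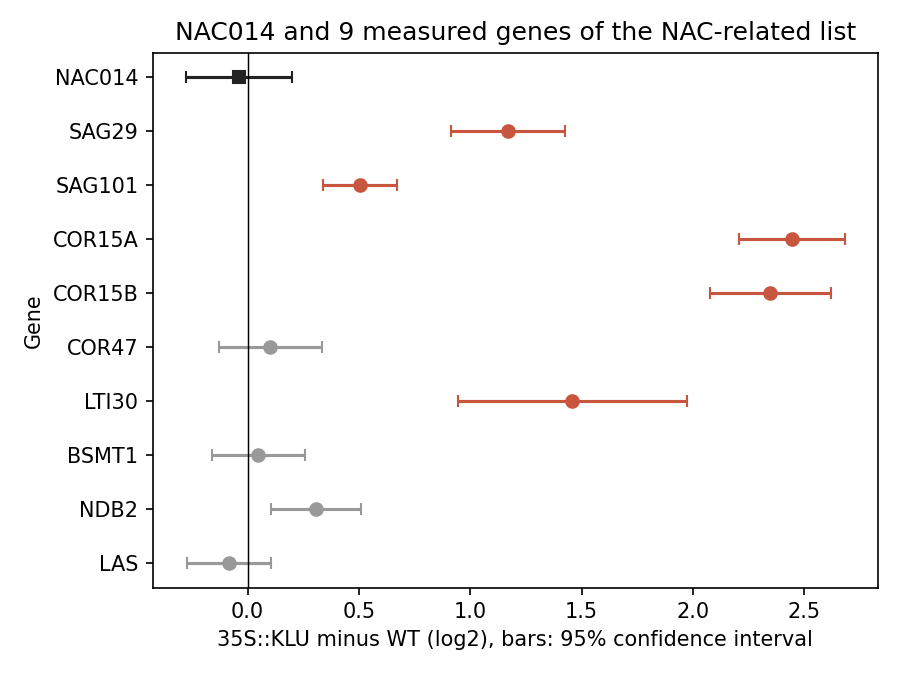
Difference between genotypes (log2, 35S::KLU minus WT, horizontal axis) with 95% confidence intervals for NAC014 (black square) and the 9 measured genes of the NAC-related list, whose links to NAC proteins were not checked (circles, red where the adjusted p was under 0.05). NAC014 lies at -0.04 with an interval of -0.28 to 0.20, and the 5 red genes lie at 0.50 to 2.44.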

How the data were processed

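The values the authors deposited are log2 signals, 1 for each probe set on each array. Per the submitters' processing notes they come from RMA (background correction, quantile normalization and summary per probe set), whose version was not given in the sources used here. RMA compresses dim signals. Of 22810 probe sets, 64 controls were left out and 22746 were tested with no filter. The platform annotation paired 13513 probe sets with 1 gene, 503 with several and 8730 with none. Names were matched by gene ID to RefSeq (TAIR10.1) for 13436 probe sets. NAC genes were sought by symbol, and a further search by gene ID through RefSeq symbols and synonyms, made after the values were seen, added 0.

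Differences were fitted with limma 3.58.1 (lmFit, eBayes) in R 4.3.3 on all 6 arrays without a block, and p-values were adjusted across all probe sets by the Benjamini-Hochberg method, with 0.05 as the threshold. Two-sided permutation tests used scipy 1.17.1. Whether replicates with the same number in both genotypes deviated together was checked. The fit was tested on simulated data for 22746 probe sets. It recovered 53.7% of log2 changes of 0.5, 91.0% of changes of 1 and 100% of changes of 2, with 11 false calls. Only 67, 67 and 66 probe sets were changed by these amounts, with independent normal noise and no plate effect. In the real data 1893 probe sets passed, so the recovered shares need not hold there. Alternatives were 3 scalings, array weights, a replicate block, leaving out each array, other eBayes settings, a filter on dim probe sets, the mean or dimmest probe set of a gene and 2 other thresholds. The symbol rule, the gene lists and the rule for named genes (every NAC gene found, and all measured genes of the lists) were chosen with earlier results of these data known. No protein or promoter sequence was used here.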

Additional observations from a re-analysis of the deposited data

How the results depend on the processing

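NAC014 did not pass under any of the 15 alternatives (limma adjusted p 0.64 to 0.98), nor at thresholds of 0.01 and 0.1. The mean and the dimmest probe set only repeat the main fit, since NAC014 had 1 probe set. Leaving out each array gave differences from -0.12 to 0.055, with the sign turned without WT replicate 1 (0.055) and 35S::KLU replicate 1 (0.018), and the other 9 gave -0.04 to -0.01. The replicate block left NAC014 at -0.04 (adjusted p = 0.90) and the count of risers among the 9 genes of the NAC-related list at 5. The count over all probe sets behind the 8.32% background was 1893, and it was 1279 with the block, 2978 with array quality weights and 906 when WT replicate 2 was dropped. Dropping replicate 3 gave 1236 for WT and 1142 for 35S::KLU, and dropping 35S::KLU replicate 2 gave 1219. Dropping replicate 1 gave 1548 for 35S::KLU and 1962 for WT, the latter above the count with all arrays. Deviations of the 3 same-numbered pairs correlated at -0.20 to 0.04, and 1 of the 3 WT arrays and 0 of the 3 35S::KLU arrays correlated best with its own number. Whether a number marks a shared plate was not given in the sources used here, so the fit without the block was kept. The median of the listed genes was 1.17 with the filter on dim probe sets, which drops LAS and BSMT1 and leaves 7, and 0.46 to 0.54 on leaving out each array. The same 5 genes rose in all 15 alternatives. Of these, the mean and the dimmest probe set only repeat the main fit, since each of the 5 genes had 1 probe set. The number of arrays and the single probe set limit what can be said of NAC014.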
